A study of Mus musculus with 2 samples.

Results

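Chromatin accessibility was described at 10 mouse genes of zinc, copper and iron handling, the metallothioneins Mt1, Mt2, Mt3 and Mt4, the metal-sensing transcription factor Mtf1, the zinc exporter Slc30a1, the zinc importer Slc39a8, the iron exporter Slc40a1, the transferrin receptor Tfrc and the ferritin heavy chain Fth1. The genes were chosen by symbol and not by a measured value, but with earlier results of these data known. They are 10 of the 21938 protein-coding genes annotated on chromosomes 1 to 19, X and Y in GENCODE M21 on mm10. Each was examined over its gene body and the 20 kb on each side. DNase-seq, in which DNase I cuts DNA not wrapped in nucleosomes, had been applied to kidney tissue of female B6CASTF1/J mice, the first-generation cross of C57BL/6J and CAST/EiJ, aged 36 days. The 2 libraries were biological replicates 1 and 2 of 1 group (n = 2), with no stated treatment, control or second tissue, so no difference between conditions could be tested. The labels number the females separately but give both the same donor entry, so whether they are separate animals is not settled. The spread between the libraries may therefore be partly or wholly technical.

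Metallothioneins are small cysteine-rich proteins that bind zinc, copper and cadmium. When free zinc rises, the zinc-finger protein MTF1 enters the nucleus and binds metal response elements, short sequences in front of the metallothionein genes and Slc30a1. In the kidney, metallothionein is best known for holding cadmium in the proximal tubule. Iron handling is set largely after transcription: iron regulatory proteins bind stem-loops in the messenger RNAs of ferritin, ferroportin (the Slc40a1 product) and the transferrin receptor, a step that DNase-seq does not read. Oxidative and inflammatory signals also act on some of these promoters and enhancers, through antioxidant response elements and AP-1 sites.

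The sequences that carry the metallothionein result are the metal response element matches in the promoter peaks of Mt2 and Mt1. They are shown from mm10 on the strand of the match, 5′ to 3′, with the core in capitals, searched as TGCACNC and TGCGCNC on both strands. Sites are numbered along the chromosome. The search covered bases of the replicate 1 peak that were also in a peak of replicate 2, and Mt2 has further matches before that stretch.
Mt2 site 1: ccTGCGCACgacccg
Mt2 site 2: ccTGCACACgccctt
Mt2 site 3: caTGCACGCgccccc
Mt2 site 4: ttTGCGCTCgaccca
Mt1 site 1: tgTGCACACtggcgc
Mt1 site 2: tcTGCACTCcgcccg
Mt1 site 3: agTGCGCTCggctct
Mt1 site 4: ttTGCACCCagcagg
Mt1 site 5: ttTGCGCCCggactc
The Mt2 sites lay at chr8:94172616-94172630, chr8:94172670-94172684, chr8:94172689-94172703 and chr8:94172727-94172741, the first 3 on the minus strand. The Mt1 sites lay at chr8:94179064-94179078, chr8:94179089-94179103, chr8:94179107-94179121, chr8:94179167-94179181 and chr8:94179185-94179199, all on the plus strand except site 4. The 4 Mt2 cores began 238, 184, 165 and 131 bp before the last annotated start of Mt2, and the 5 Mt1 cores 175, 150, 132, 68 and 54 bp before the last annotated start of Mt1. Since both genes also have earlier annotated starts, at 94172664 and 94179082, all but Mt2 site 1 and Mt1 site 1 lay behind the first start, in annotated untranslated sequence.

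A second sequence to follow is a peak upstream of Mt2, chr8:94167361-94167560, which held a pair of metal response element cores 1 base apart, both inside a footprint of both libraries. A footprint is a short stretch within open chromatin that the authors called as protected from cutting. The plus strand is shown with the cores in capitals, which read as TGCGCCC and TGCACTC on the other strand.
upstream Mt2 peak: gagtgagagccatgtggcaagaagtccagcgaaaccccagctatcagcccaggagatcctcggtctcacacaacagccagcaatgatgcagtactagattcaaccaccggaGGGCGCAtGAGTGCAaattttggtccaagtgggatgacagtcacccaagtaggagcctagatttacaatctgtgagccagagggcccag
The peak with the most matches, chr8:94183221-94183460, lay downstream of Mt1 at a start of the long noncoding RNA gene Gm39228. Capitals mark its 7 cores on either strand, of which a pair overlap in the palindromic stretch.
downstream Mt1 peak: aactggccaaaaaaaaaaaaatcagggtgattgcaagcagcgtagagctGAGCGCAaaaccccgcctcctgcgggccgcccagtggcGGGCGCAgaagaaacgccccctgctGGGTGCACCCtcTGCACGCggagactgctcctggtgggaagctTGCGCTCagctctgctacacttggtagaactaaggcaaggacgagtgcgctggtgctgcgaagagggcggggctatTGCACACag

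Peaks were taken from the stricter of the authors' peak sets, of 124504 peaks (replicate 1) and 68056 peaks (replicate 2), whose median heights were 1.33 and 1.46. Height is the authors' signal value per peak, and its scale is not stated, so each height is given with its percentile among all peaks of its library. No read total is given, so depth is unknown. Genome-wide, 65636 peaks of replicate 1 overlapped a peak of replicate 2, and the median log2 ratio of their heights (replicate 2 over replicate 1) was -0.60. All 8 kidney tubule markers had a promoter peak in both libraries, but so did both brain markers, Gfap (heights 2.08 and 1.06) and Snap25 (2.12 and 1.05). In replicate 1 the tubule markers Aqp2 (0.687 and 0.988) and Slc12a1 (0.789 and 1.12) were lower than both brain markers. The other tubule markers were higher there, from 2.29 (Cubn) to 7.52 (Slc12a3). Both podocyte markers had one in replicate 1 alone, 1 of 3 liver markers (Apoa2) had one in both, and none of the 2 skin, 2 erythroid or 2 leukocyte markers had one in either.

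A promoter peak, here a peak within 1 kb of any annotated start of the gene, was present in both libraries at 8 of the 10 genes, against 60.7% of all protein-coding genes. The exceptions were Mt3 and Mt4. By library, 9 genes had one in replicate 1, against 66.9% of all genes, and 8 in replicate 2, against 60.9%. In the wider set 8 had one in both, against 64.9%. Mt3 is known mainly from brain and Mt4 from stratified epithelium. In whole tissue, fewer cells with an open site and a site less open in each cell cannot be told apart. With 10 genes chosen by name, the count is a description of them and carries no test.

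**Figure D1:**
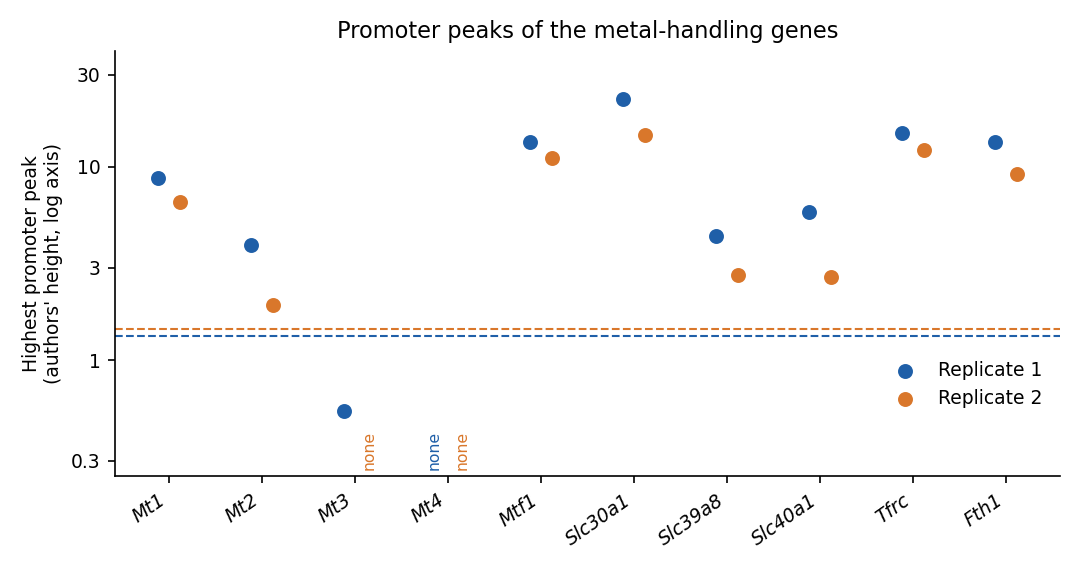
Height of the highest promoter peak (authors' scale, log axis) of each of the 10 genes in replicate 1 and replicate 2; dashed lines give each library's median over all peaks, and "none" marks a gene without a promoter peak. Slc30a1 stands highest in both libraries (22.6 and 14.7), and Mt3 has a single low point of 0.547 in replicate 1.

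The order of the promoter heights was nearly the same in the 2 libraries. Slc30a1, the exporter that moves zinc out of the cell, was highest at 22.6 in replicate 1 and 14.7 in replicate 2. Tfrc followed at 15.0 and 12.3, then Mtf1 at 13.5 and 11.1 and Fth1 at 13.4 and 9.19. Mt1 lay in the middle of the range at 8.81 and 6.60. Slc40a1 (5.84 and 2.69), Slc39a8 (4.40 and 2.76) and Mt2 (3.95 and 1.93) formed the lower group, and Slc40a1 and Slc39a8 changed places between the libraries. Each pair of neighbours in this order differed, in at least 1 library, by less than the larger of their own gaps between the libraries. Those gaps include the shift to lower heights that most shared peaks of the genome had in replicate 2. They therefore do not measure how well single steps of the order are resolved, which was not tested. Among all genes with a promoter peak, Slc30a1 stood at the 94.0 percentile in replicate 1 and the 87.2 in replicate 2, Mt1 at the 57.1 and 58.4, and Mt2 at the 30.6 and 18.7.

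Accessibility in the metallothionein cluster was concentrated at its Mt1 and Mt2 end. The 4 genes lie in the order Mt4, Mt3, Mt2, Mt1 on chromosome 8 over 43.1 kb, all read in the same direction, with gaps of 13.6, 18.5 and 5.5 kb. Their windows overlap, and peaks that fall in several windows were counted once in totals. All 7 shared peaks of the cluster lay between a site upstream of Mt2, whose middle was at -5204 bp from the nearest Mt2 start, and a site at 12039 bp from the nearest Mt1 start.

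**Figure D2:**
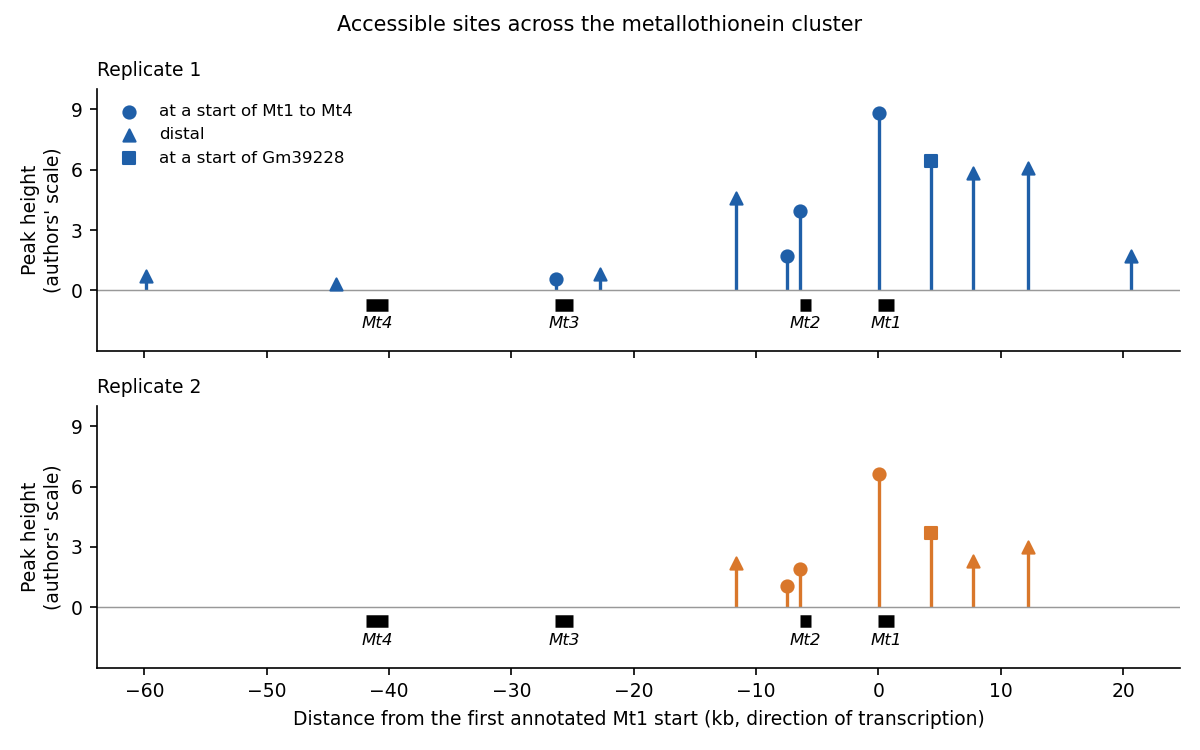
Peaks of the stricter set across the metallothionein cluster in replicate 1 (top) and replicate 2 (bottom), with height on the authors' scale against distance in kb from the first annotated start of Mt1; black bars are genes and the marker shows the kind of site. The 7 peaks of replicate 2 all have a counterpart in replicate 1, and the sites around Mt4 and Mt3 are low and in replicate 1 alone.

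Mt1, one of the pair of widely expressed metallothioneins, had 1 promoter peak, chr8:94179001-94179240, in the same place in both libraries. Its heights of 8.81 and 6.60 stood at the 94.2 and 90.8 percentiles of all peaks, and it held 4 footprints in each library. None of the 5 metal response elements printed above was wholly inside a footprint in either library. Site 1 touched a footprint in both libraries and site 3 in replicate 1. A GC box (GGGCGG, the letters bound by SP1-type factors) at chr8:94179052-94179057, just before the first start, was inside a footprint of both libraries. An antioxidant response element match (TGACNNNGC) at chr8:94179141-94179149 touched a footprint in both.

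Mt2, the other widely expressed metallothionein, had 2 promoter peaks in both libraries. The higher one, chr8:94172581-94172800, had heights of 3.95 and 1.93, at the 83.7 and 61.8 percentiles, and was called over chr8:94172441-94172820 in replicate 2. A start of the antisense gene Gm45774 is also in its reach. Sites 1 and 2 of the 4 printed above were inside a footprint in replicate 1, but in replicate 2 they only touched one, as did site 3 in both libraries. The lower peak, chr8:94171516-94171687, with heights of 1.71 and 1.08, had its middle at -1063 bp from the nearest Mt2 start. It held the letters ACANNNTGT of a glucocorticoid response element at chr8:94171538-94171546, in no footprint. The same letters lay in the peak upstream of Mt2, at chr8:94167536-94167544, where they touched a footprint in both libraries. They also lay past Mt1 at chr8:94191217-94191225, in no footprint. Glucocorticoids are known to induce metallothionein genes in mouse tissue, and 5.70% of all shared peaks hold these letters in their central 200 bp.

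At Mt3 only a low peak was called. Replicate 1 had it at chr8:94152617-94152762 with a height of 0.547, at the 14.2 percentile of that library. Replicate 2 had no peak there in the stricter or the wider set, and 0 bp within 1 kb of an Mt3 start had an FDR (false discovery rate) below 0.05. Of all protein-coding genes, 6.19% had a promoter peak in replicate 1 alone. At Mt4 neither library had a promoter peak in either set, and 0 bp within 1 kb of its start had such an FDR in either library. Genome-wide, 32.9% of protein-coding genes had a promoter peak in neither library. In the whole Mt4 window, 1.46% of bases had an FDR of 0.001 or lower in replicate 1 and 0% in replicate 2, against 6.37% and 5.80% in the Mt1 window.

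The 3 shared distal sites of the cluster, those away from every annotated start, were higher than the Mt2 promoter peak in each library. The peak upstream of Mt2 printed above had heights of 4.60 and 2.22, with 4 footprints in each library. Its footprinted metal response elements were the only ones of the cluster that lay inside a footprint in both libraries, 2 of 22. Past Mt1, the peak chr8:94186681-94186860 had heights of 5.81 and 2.28 and held 3 metal response elements, none touching a footprint. It also held the letters of an antioxidant response element and, within them, of an AP-1 site (TGANTCA). The farthest shared site, chr8:94191201-94191360, had heights of 6.09 and 2.97 and held 1 metal response element, in no footprint. It also held overlapping antioxidant response element and AP-1 letters, in no footprint, and a GC box inside a footprint of both libraries. The peak at the Gm39228 start, also printed above, had heights of 6.43 and 3.68, with 7 and 6 footprints. Of its 7 cores, 3 were inside a footprint in replicate 1 and none in replicate 2. It also held the letters AGGGGGC, part of the CTCF motif, inside a footprint of both libraries.

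Metal response elements were dense in the cluster's open chromatin beside other peaks. With overlapping matches, such as those of a palindrome, counted once, the Mt1 promoter peak and the Gm39228 peak each held 5 in the central 200 bp, a count reached by 6 of all 65636 shared peaks (0.00914%), these included. The higher Mt2 promoter peak held 4, which 34 (0.0518%) reached. With every match counted, the Gm39228 peak held 6 (reached by 6 peaks), the Mt1 peak 5 (by 22, or 0.0335%) and the Mt2 peak 4 (by 85, or 0.130%). A single match is common, at 17.8% of shared peaks, 25.95% near starts and 13.2% away from them, and 0.667% hold at least 3. The Mt1, Mt2 and Gm39228 peaks all lie at starts. The shares for several matches are over all shared peaks, and none is given here for peaks at starts alone. Over all gene windows there were 29 matches in 12 of the 45 shared peaks, or 27 with overlapping ones counted once. By place, 7 of 26 peaks at starts and 5 of 19 distal ones held a match in the central 200 bp. Of the 29, 22 were in the metallothionein cluster. The other 7 were 4 near Slc30a1, 2 at Tfrc and 1 at Slc39a8, and the letters were absent from the shared peaks of the Mtf1, Slc40a1 and Fth1 windows. A match is a description of the letters and not evidence that MTF1 was bound.

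**Figure D3:**
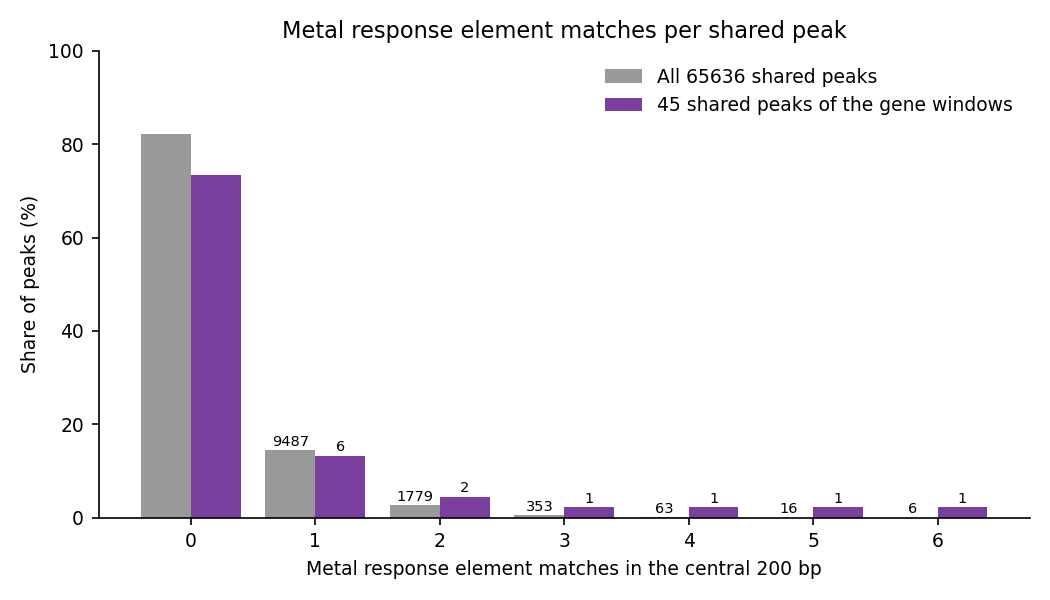
Share of shared peaks (%) by the number of metal response element matches in their central 200 bp, for all 65636 shared peaks (grey) and the 45 in the gene windows (purple), with the number of peaks above each bar from 1 match on; overlapping matches are counted separately. Of the 45, 6 have at least 2 matches, and 1 has the highest count of 6.

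The footprinted share of these matches was near that over all shared peaks. Of 28 matches in the central 200 bp of shared peaks of the gene windows, 4 were inside a footprint of both libraries (14.3%), against 17.3% of 14472 matches over all shared peaks. Near starts the count was 2 of 20, against 23.9%, and away from starts 2 of 8, against 8.72%. The 2 near starts are the overlapping Tfrc cores, and the 2 away from starts are the adjacent pair upstream of Mt2. Each of these counts thus rests on a single footprinted stretch. Of 28 GC boxes, which lay in 16 of the 45 peaks, 15 were inside a footprint of both libraries (53.6%), against 38.1% of GC boxes over all shared peaks. Near starts the GC box counts were 13 of 25, against 40.5%. The other motifs searched were CACGTG (E-box), TTCNNNGAA (STAT), GTTAATNAT (HNF1), CAAAGTCCA (HNF4), CCGGAAG (ETS) and GCGCATGCG (NRF1), with between 0 and 4 matches each and none inside a footprint of both libraries. Among all shared peaks, the central 200 bp hold a GC box in 23.3% (47.5% near starts and 9.52% away from them, beside 13 of 26 and 3 of 19 in the gene windows), the antioxidant response element in 11.5%, the CTCF letters in 8.16% and the AP-1 letters in 7.25%. The AP-1 and antioxidant letters can overlap.

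In the RefSeq promoters, 300 bases each and mostly before a gene's start, on GRCm38.p6, 9 of the 10 genes were matched. Mt2 held 4 metal response elements, which 0.517% of 32851 promoters matched or exceeded, and Mt1 held 3 (1.97%). The Mt2 promoter, chr8:94172368-94172667, held site 1 of the Mt2 sites printed above but not sites 2 to 4. Its remaining matches are thus different ones, which begin before the replicate 1 peak. Those of Mt1 were sites 1 to 3 printed above. Slc30a1 held 2 (7.11%), 1 of the Tfrc promoters held an overlapping pair, and Mt3 and Mt4 held 1 each, as 25.7% of promoters do at least. For Slc39a8, 1 promoter held 1 match and the other none. The other Tfrc promoter and the Mtf1 and Fth1 promoters held none. The letters were thus present at the promoters of Mt3 and Mt4, where no peak was shared by both libraries.

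Mtf1, which encodes the metal-sensing factor itself, had 2 promoter peaks in both libraries. The higher one, chr4:124802401-124802600, had heights of 13.5 and 11.1, at the 97.1 and 95.9 percentiles, and a GC box inside a footprint of both. The lower one, chr4:124802021-124802160, had heights of 5.07 and 1.97. The window held 6 shared distal peaks, the most of the 10 genes, in a gene of 47697 bp. The highest of these, in an intron at chr4:124817861-124818080, had heights of 4.46 and 2.12. Another intronic peak, chr4:124808541-124808860, was the only distal peak of the 10 windows that was higher in replicate 2, at 1.20 in replicate 1 and 1.48 in replicate 2. A peak in the untranslated sequence at the far end of the gene, chr4:124847741-124847880, had heights of 2.97 and 1.10.

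Slc30a1 had 3 shared promoter peaks and 1 more in replicate 2 alone, at a height of 0.621. Its highest, chr1:191906581-191906780, stood at the 99.4 and 97.7 percentiles of all peaks. Starts of the antisense gene 1700034H15Rik lie within 1 kb of it, and accessibility of the 2 genes cannot be told apart. The part of it that precedes the first Slc30a1 start, chr1:191906581-191906766, is shown on the plus strand, with the single metal response element core, on the minus strand, in capitals.
Slc30a1 upstream: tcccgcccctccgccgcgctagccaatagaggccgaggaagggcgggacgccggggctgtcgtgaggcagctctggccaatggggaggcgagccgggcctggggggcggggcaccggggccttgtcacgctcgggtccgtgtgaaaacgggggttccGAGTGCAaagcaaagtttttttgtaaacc
That core touched no footprint, whereas all 3 GC boxes of the peak were inside footprints of both libraries. The flanking promoter peaks had heights of 5.19 and 2.51 at chr1:191906201-191906380, and of 4.51 and 2.24 at chr1:191907541-191907700. Its 4 shared distal peaks were lower. The highest, chr1:191928441-191928620, had heights of 4.12 and 1.88, and another lay in the 3′ untranslated sequence with heights of 2.46 and 1.38.

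Slc39a8, which brings zinc, manganese and cadmium into the cell, had 4 shared promoter peaks, all of moderate or low height and all at the starts clustered at its 5′ end. The remaining one of its 6 annotated starts, that of a transcript inside the gene, had none. The highest, chr3:135825501-135825660, had heights of 4.40 and 2.76, at the 85.7 and 73.9 percentiles. The other 3 lay between 1.19 and 1.48 in replicate 1 and between 0.591 and 0.886 in replicate 2. Over a gene of 63294 bp there was 1 shared distal peak, chr3:135886681-135886860, at 1.74 and 0.591. Its window had 1.68% and 1.07% of bases at an FDR of 0.001 or lower. Over the whole genome the values were 1.32% and 0.713%.

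**Figure D4:**
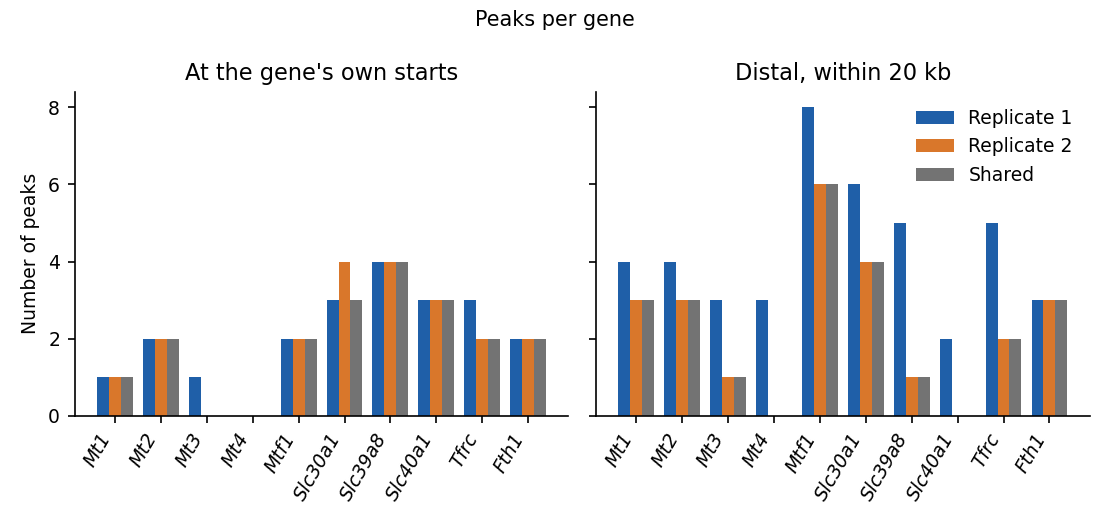
Number of peaks at each gene's own starts (left) and of distal peaks in the gene body and 20 kb on each side (right) in replicate 1, in replicate 2 and shared by both. Mtf1 has the most shared distal peaks (6), and Slc40a1 and Mt4 have none.

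Slc40a1 encodes ferroportin, the iron exporter. It had 3 shared promoter peaks. The highest, chr1:45925561-45925740, had heights of 5.84 and 2.69, at the 89.98 and 73.1 percentiles, with 5 and 4 footprints and 2 of its 3 GC boxes inside a footprint of both libraries. No distal peak was shared in its window. In replicate 1 there were 2, an intronic one at chr1:45920801-45921020 with a height of 2.76, which had a counterpart in the wider set of replicate 2, and one at chr1:45917582-45917661 with a height of 0.715, which had none. Across all protein-coding genes, 62.5% had at least 1 shared distal peak within 20 kb.

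Tfrc, the receptor that takes up transferrin-bound iron, had its highest promoter peak at chr16:32608701-32608980, with heights of 15.0 and 12.3, at the 97.7 and 96.5 percentiles. The part before the first start, chr16:32608701-32608919, is shown on the plus strand, with a pair of overlapping metal response element cores, one on each strand, in capitals.
Tfrc upstream: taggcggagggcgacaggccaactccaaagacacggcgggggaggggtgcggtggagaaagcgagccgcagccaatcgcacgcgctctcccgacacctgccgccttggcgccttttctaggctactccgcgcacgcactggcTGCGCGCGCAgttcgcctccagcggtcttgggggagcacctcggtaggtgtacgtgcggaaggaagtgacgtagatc
Both cores were inside a footprint in both libraries. They come from 1 palindromic CpG-rich stretch, so they are not separate sites. Within the gene, an intronic peak at chr16:32610641-32610800 had heights of 1.71 and 0.876. Beyond its far end, chr16:32638581-32638760 had heights of 4.31 and 1.94.

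Fth1, the ferritin subunit that oxidises iron for storage, had 2 shared promoter peaks. The higher one, chr19:9982481-9982740, had heights of 13.4 and 9.19, at the 97.1 and 94.3 percentiles, with 7 and 5 footprints and both GC boxes inside footprints of both libraries. Ferritin heavy chain has processed copies elsewhere in the genome, and how the authors treated reads with several matches is not stated. The window also held the highest distal peak of the 10 genes, chr19:9978721-9978960, with heights of 10.5 and 8.65, at the 95.5 and 93.7 percentiles, with its middle at -1758 bp from the nearest start. The mouse gene is known for an upstream enhancer with AP-1-like and antioxidant response elements. The first part of the peak and the bases before it, chr19:9978581-9978880, are shown on the plus strand, with matches to TGACNNNGC on either strand in capitals.
Fth1 upstream: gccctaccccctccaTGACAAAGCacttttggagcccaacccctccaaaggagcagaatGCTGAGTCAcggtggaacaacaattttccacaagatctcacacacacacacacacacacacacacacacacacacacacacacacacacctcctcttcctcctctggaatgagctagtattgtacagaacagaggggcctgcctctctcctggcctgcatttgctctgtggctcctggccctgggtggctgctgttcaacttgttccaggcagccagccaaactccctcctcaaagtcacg
Both matches lay outside the peak, 117 and 73 bp before it, and 4108 and 4064 bp before the fourth annotated start of Fth1. Neither was in a peak of the stricter or wider set, but all 9 bases of each had an FDR of 0.001 or lower in both libraries, and each touched a footprint in both. The stretch at that FDR around the peak ran over 920 bp in replicate 1 and 720 bp in replicate 2, while the peak itself spans 240 bp. A run of CA repeats separates the matches from the peak. The other shared distal peaks of Fth1 were chr19:9977141-9977360, with heights of 4.51 and 3.71, and chr19:9991421-9991580, inside Best1, with heights of 3.60 and 1.39.

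Across the 10 windows, which merge into 7 regions of 487435 bp, replicate 1 had 66 peaks and replicate 2 had 46. The 45 shared ones comprised 19 at the genes' own starts, 19 distal and 7 at the starts of other genes. Of the 21 peaks in replicate 1 alone, 17 were distal, and 10 had a counterpart in the wider set of replicate 2. In the windows 68.2% of replicate 1 peaks and 97.8% of replicate 2 peaks were shared, against 52.7% and 96.3% over the genome. The genes had a median of 2.5 shared distal peaks, where all protein-coding genes had 1. In these medians a peak in overlapping windows counts for each gene. The 3 of Mt1 and the 3 of Mt2 are the same peaks, and 1 of them is also that of Mt3.

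Nearly all of these sites were lower in replicate 2, as were most shared peaks of the genome. The median log2 ratio was -0.67 over the 19 promoter peaks, which were all lower in replicate 2, and -1.03 over the 19 distal ones, of which 18 were lower. Over the whole genome, 92.2% of shared peaks were lower in replicate 2, with medians of -0.59 near starts and -0.61 away from them. With all shared peaks split into 4 bins by replicate 1 height, the median of the gene windows was the lower one in each bin. In the highest bin it was -0.92 over 16 peaks, against -0.56 over all 16395, and in the lowest -0.54 over 8, against -0.37. The peaks closest to equal height were the promoters of Mtf1 (-0.27) and Tfrc (-0.29) and the distal Fth1 peaks at chr19:9978721-9978960 (-0.27) and chr19:9977141-9977360 (-0.28), besides the intronic Mtf1 peak at 0.30 and 2 peaks at other genes' starts. The values of 2 libraries do not separate animals from library preparation.

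**Figure D5:**
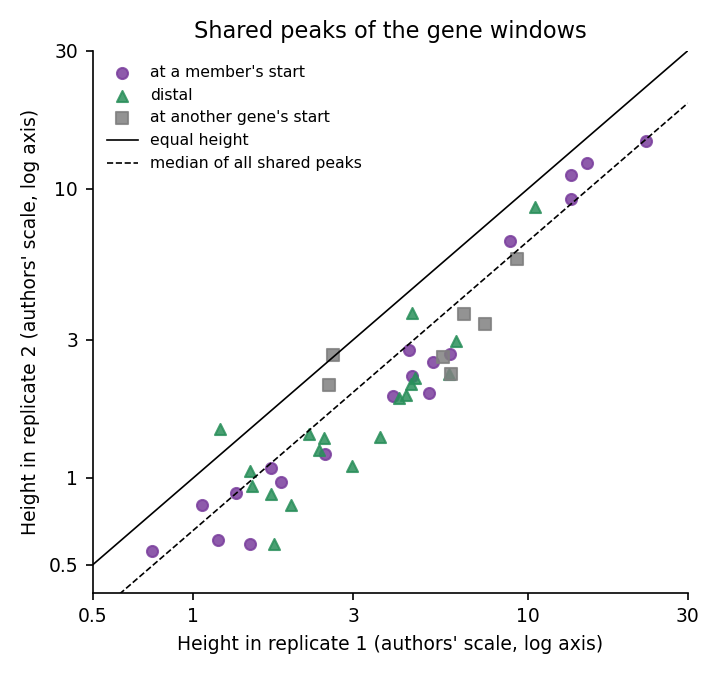
Height in replicate 2 against height in replicate 1 (authors' scale, log axes) for the 45 shared peaks of the gene windows, by kind of site; the solid line is equal height and the dashed line the median ratio of all shared peaks (log2 ratio -0.60). Most points lie below the dashed line, and 43 lie below the line of equal height.

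Other metal genes were counted from a list of 62 written by name. Of these, 50 (80.6%) had a promoter peak in both libraries, 11 in neither and 1, the manganese exporter Slc30a10, in replicate 1 alone with a height of 0.278. The share over all protein-coding genes was 60.7%, and expression breadth was not matched. Among the zinc exporters 7 of 9 had one in both. Slc30a5 (21.2 and 16.2) and Slc30a6 (17.2 and 11.1), which together load zinc into the secretory pathway, and Slc30a9 (8.38 and 5.04) were highest. Slc30a8, known from pancreatic beta cells, had none. Of the 13 zinc importers 10 had one in both, with Slc39a3 (15.9 and 15.6), Slc39a1 (16.1 and 10.1) and Slc39a7 (13.6 and 11.5, with a start of Rxrb in reach) highest. Slc39a2, Slc39a4, the intestinal zinc importer, and Slc39a12 had none.

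The genes of iron uptake, storage and export had a promoter peak in both libraries in 15 of 18 cases. Highest were the mitochondrial iron importer Slc25a28 (34.8 and 25.8), Flvcr1 (22.4 and 16.0) and the ferritin light chain gene Ftl1 (20.02 and 18.8). Ftmt, Slc11a1, known from macrophages, and Slc25a37, known from erythroid cells, had none. Among the genes of iron sensing 7 of 11 had one. Highest were those of the iron regulatory proteins, Ireb2 (22.5 and 12.1) and Aco1 (11.5 and 9.57), and the iron chaperone gene Pcbp2 (11.9 and 12.2). Hamp, which encodes the liver hormone hepcidin, had none, and neither did Hamp2, Tmprss6 or Hjv. All 11 copper genes had one in both libraries, led by the uptake transporter Slc31a1 (18.2 and 16.2, with a start of Fkbp15 in reach) and the copper chaperones Ccs (20.2 and 13.7, with Ccdc87 in reach) and Atox1 (14.4 and 13.5).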

How the data were processed

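DNase-seq was deposited for 2 kidney libraries of 1 group. Per the labels the files are on mm10 and were made separately for each library; aligner, caller and read totals: not given in the sources used here. Column 7 of the authors' peak files is a signal, used as the peak's height; its scale is not stated. Intervals in the deposited FDR files carry a q-value (false discovery rate), all below 0.05, and the deposited footprint files hold the p-value threshold 0.01 in every row, so footprints have no score of their own. Peaks of the stricter set reach an FDR of 0.001 or lower, and the wider set was an alternative.

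From these, peaks were assigned in Python 3.11.15 (numpy 2.4.6, pandas 2.3.3, matplotlib 3.10.9) to genes of GENCODE M21. Promoter peaks overlap the 1 kb on either side of any annotated start of the gene, distal peaks lie in the gene body or 20 kb around it and touch no such window of any gene, and peaks of the 2 libraries are shared when they overlap by at least 1 base. Percentiles are ranks among all peaks of a library. Motif letters were searched on both strands of mm10, and promoters came from RefSeq (GRCm38.p6). The steps were tested on simulated peaks and sequences. With 1 group there was no test, and numbers of peaks and footprints limit the precision, since depth is unknown. No alleles were analysed here, although the mice are hybrids and were read against a C57BL/6J sequence.

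The 10 genes, the list of 62 other metal genes, the motifs and the marker lists were chosen with earlier results of these data known. The rule for named genes took all 10 genes, up to 3 genes of each list with the highest mean percentile, and those without a promoter peak where 5 or fewer. Slc30a10, the brain markers, Apoa2 and the tubule markers given with heights were named after their values were seen. The gene Hjv was matched through its older symbol Hfe2. Alternatives comprised windows of 500 or 2500 bp at the starts, protein-coding transcripts alone, the wider set, the stronger 50% of peaks, an overlap of 50%, gene bodies with no flank or with 50 kb, assignment to the nearest start alone, other motif rules and leaving out each replicate.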

Additional observations from a re-analysis of the deposited data

How the results depend on the processing

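The 8 genes with a promoter peak in both libraries stayed 8 with other start windows, protein-coding starts, the wider set, the stronger 50% of peaks, the nearest start alone and without replicate 1. Without replicate 2, Mt3 made it 9 (range 8 to 9). The other settings were not run for this count. The share of all protein-coding genes counted in the same way was 60.7% in the main setting. Across these settings it lay between 52.8% (stronger 50% of peaks) and 66.9% (without replicate 2). The heights of the highest promoter peaks, 17 values, were unchanged under the 4 alternatives run for them. These were the other start windows, protein-coding starts and the wider set, which leave the peaks of the stricter set in place. The stronger 50% of peaks and the nearest start alone were not run for the heights. The count of shared promoter peaks, 19, fell to 11 with the stronger 50% of peaks and ranged from 20 to 21 without a replicate. The count of shared distal peaks, 19, was 31 in the wider set, 8 with the stronger 50%, 8 in the gene body alone and 44 with flanks of 50 kb, and ranged from 19 (without replicate 1) to 36 (without replicate 2). These settings admit more or fewer peaks, or more or less sequence, by construction. The 29 metal response element matches became 14 in gene bodies alone, 4 with the longer form that ends in GG, and 4 when a footprint of both libraries had to hold the match, and ranged from 31 to 38 without a replicate. Counting overlapping matches once, chosen after seeing the data, gave 27. The 50 other metal genes ranged from 50 to 51 without a replicate and were 42 both with the stronger 50% and with assignment to the nearest start alone. The share over all protein-coding genes was also lower there, at 52.8% with the stronger 50% and 55.4% with the nearest start alone. No paired analysis was possible because there is 1 group. Of the 21 peaks called in replicate 1 alone, with heights of 0.334 to 2.76 there, 10 had a counterpart in the wider set of replicate 2. Why the others had none was not tested, and absence from the set does not show a closed site.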
